A study of Rattus norvegicus with 12 samples.

Results

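Solute carriers are the largest family of membrane transporters, and their transcripts were measured here in mixed glial cultures from neonatal rat brain after exposure to cytokines. A gene was counted as a solute carrier where a probe set of an Affymetrix GeneChip for rat transcripts carried 1 gene symbol that starts with Slc and a family number. The excitatory amino acid carriers Slc1a1, Slc1a2 and Slc1a3 and the iron carrier Slc11a2, with 14 probe sets in all, were left out. This gave 167 probe sets for 116 genes of 36 families, among 8740 probe sets tested and 4736 genes with a probe set of their own. Of these 116 genes, 39 had more than 1 probe set, and the brightest one, by its mean log2 signal over the 12 arrays, stands for the gene unless another is named. The members were chosen by name and not by their values. Cultures of astrocytes, oligodendrocytes, microglia and their precursors had been kept for several days before treatment, and total RNA was taken 6 hours after cytokines were added. There were 3 experiments, and each had a control culture in defined medium with 2% serum and cultures in the same medium with 1 of 3 mixtures, every cytokine at 10 ng/ml, which makes 4 groups of 3 arrays. Per the labels, the Th1 mixture held TNF-a, interferon-g, IL-2 and G-CSF of the rat. The monocyte/macrophage (M/M) mixture held TNF-a, IL-12p40 and both IL1a and IL1b, to which the methods add IL-6. The Th2 mixture held porcine TGF-b1 with IL-10, IL-5 and G-CSF, to which the methods add IL-4. The labels do not say whether the cultures of an experiment came from separate animals. Because the model held experiment as a block, p values measure how differences between groups varied from experiment to experiment.

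Solute carriers move sugars, amino acids, ions, nucleosides, metals and metabolites across membranes. Some let their substrate follow its own gradient, some exchange 1 solute for another, and others are driven by the gradient of sodium or protons that pumps maintain. In brain, astrocytes take up glucose and release lactate through such carriers, oligodendrocytes use lactate and creatine, and glia clear transmitters and buffer pH, potassium and iron. A further large family, Slc25, sits in the inner mitochondrial membrane and passes nucleotides, phosphate and organic acids between mitochondria and cytosol.

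The arrays of experiment 3 stood apart from the others. The median signal of control arrays was 59.1, 38.4 and 26.9 (experiments 1 to 3), and that of M/M arrays 60.9, 57.9 and 42.2. Values of experiments 1 and 2 carry 2 decimals with 0 to 3 probe sets below 1 on an array, whereas values of experiment 3 carry 1 decimal with 167 to 403 probe sets below 1. Within each experiment, the log2 deviation of each treated array from the mean of the 3 treated arrays was compared between experiments over 3222 probe sets with a signal of 100 or more. Arrays of the same mixture correlated across probe sets with r of 0.685 to 0.804 between experiments 1 and 2. Against experiment 3, r lay between -0.532 and 0.0144. By these medians, the control of experiment 2 was dimmer than every treated array, and in experiment 3 the M/M array was the brightest. Counts, medians and the differences of most named genes are therefore also given after every array was centred on its own median log2 signal. Many of them are also given without experiment 3. The brightest markers of oligodendrocytes and astrocytes in control cultures were Mbp and Glul (3678 and 2858, mean of 3). Other astrocyte markers were dimmer, down to 75.5 for Gja1 and 62.7 for Aqp4, and Gfap was not analysed. Summed signals of 6 fibroblast markers were 952 to 5893 in control, beside 3048 to 7334 for 5 astrocyte markers. Those of 5 neuronal markers stayed between 48.3 and 268 on all arrays. Summed signals of 5 of 6 microglial markers were 823 to 1943 in control, 1373 to 3938 in Th1, 3272 to 4643 in M/M and 1403 to 2911 in Th2 cultures. Most of the rise in these sums came from Cd14, with means of 501 in control, 2094 in Th1, 2784 in M/M and 1193 in Th2 cultures. Control and M/M means were 538 and 745 for Aif1, 198 and 220 for Ptprc, 15.8 and 15.8 for Csf1r and 9.76 and 13.5 for Itgam. Of these 5, Cd14 alone passed the test in M/M, none was at 0, and their part in the results below was not tested. In RNA of whole cultures, more cells of a type and more RNA per cell cannot be told apart.

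In control cultures, 42 of 116 genes had a mean signal of 100 or more, 5 had 1000 or more and 24 had less than 10. The signals of different probe sets depend on their probes, and so they show which carriers were measured well and do not rank the carriers by RNA. The 5 brightest were Slc25a5, Slc25a4, Slc25a3, Slc12a2 and Slc3a2. Mitochondrial carriers had a median control signal of 337 over 12 genes, the dimmest of them at 60.1, and the vesicular transmitter carriers had a median of 10.5 over 6 genes. In 61 of 116 genes the mean control signal reached the median of all probe sets, 44.6. Control arrays could differ widely in 1 gene, as for Slc15a1, an intestinal peptide carrier named after its values were seen. It had 66.2, 66.7 and 0.4 in control and 74.8, 71.4 and 22.2 with M/M cytokines, so that its difference rests on the control of experiment 3.

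**Figure D1:**
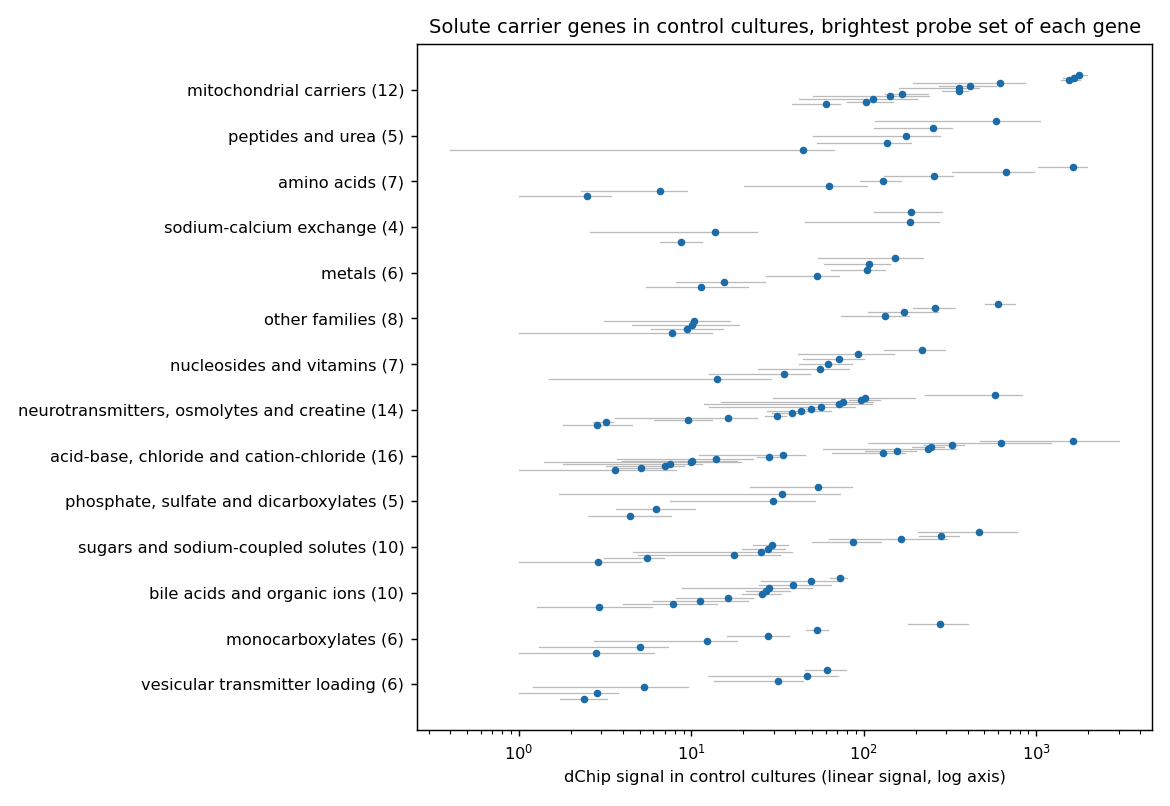
Signal of each of the 116 solute carrier genes in control cultures on a log axis, by substrate group with the number of genes in brackets. Points are means of 3 control arrays and grey lines join the lowest and the highest array. The mitochondrial carriers lie at 60.1 or above, whereas most other groups reach from below 10 to above 100.

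After 6 hours of cytokines, the carriers for glucose (Slc2a1), cationic amino acids (Slc7a1) and bicarbonate (Slc4a7) had the largest M/M differences among carriers whose control signal reached the median of the array, and each was above control in 3 of 3 experiments with every mixture. The mixtures share their controls, and 9 of 116 carriers (7.76%) met this, against 5.68% of all genes. After centring 5 did (4.31%, against 3.27%), and Slc7a1 was no longer among them. None of the 167 probe sets passed the adjusted threshold of 0.05 in limma for Th1, M/M or Th2 cytokines. Over all 8740 probe sets the shares called were 0.0%, 0.263% and 0.0114%. The lowest adjusted p among members was 0.599 in Th1, 0.0595 in M/M and 0.562 in Th2 cultures, the M/M value at a probe set for Slc7a1. At an unadjusted p under 0.05, 13 member probe sets (7.78%) were higher in Th1, 27 (16.2%) in M/M and 13 (7.78%) in Th2 cultures. The shares of all probe sets were 4.75%, 15.4% and 6.06%, so that the M/M share of members was near that of the array. No member was lower at that p, against 0.812%, 0.584% and 0.686% of all probe sets. Between mixtures, limma called 0 members and 0.0% of all probe sets in each of the 3 comparisons. At an unadjusted p under 0.05, 7 member probe sets differed between M/M and Th1 (4.19%, against 2.89% of all), 6 between M/M and Th2 (3.59%, against 3.92%) and 3 between Th1 and Th2 (1.8%, against 1.85%).

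Counted by gene, 15 of 116 carriers were above control in 3 of 3 experiments with Th1 cytokines (12.9%, against 14.3% of all genes), and 4 were below (5.38% of all genes). With M/M cytokines 45 were above (38.8%, against 31.8%) and 5 below (against 3.63%). With Th2 cytokines 32 were above (27.6%, against 26.9%) and 6 below (against 6.57%). The direction therefore lay towards higher signals for members and for the whole array alike. After centring, 15, 23 and 19 carriers were above control in 3 of 3 experiments with Th1, M/M and Th2 cytokines, against 11.4%, 12.9% and 15.3% of all genes. Those below were then 11, 29 and 23, against 11.0%, 25.8% and 16.5%. Thus the excess of higher over lower carriers with M/M and Th2 cytokines was present as deposited and absent after centring. Without experiment 3, carriers above control in both remaining experiments numbered 38 in Th1, 48 in M/M and 53 in Th2 cultures, against 32.9%, 36.6% and 39.0% of all genes. After centring these were 28, 31 and 36, against 21.3%, 21.1% and 25.1%.

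Over the 116 genes the median log2 difference from control was 0.15 in Th1, 0.42 in M/M and 0.23 in Th2 cultures, and over all genes it was 0.13, 0.31 and 0.19. Without experiment 3 the members' medians were 0.27, 0.14 and 0.28, and without experiment 2 they were -0.06, 0.34 and 0.05. By experiment, the members' median in M/M cultures was 0.05, 0.40 and 0.67, that in Th1 cultures -0.03, 0.53 and 0.0 and that in Th2 cultures 0.0015, 0.47 and 0.02. Thus the Th1 and Th2 medians came from experiment 2, and most of the M/M median came from experiments 2 and 3. After centring the members' medians were -0.01, -0.01 and 0.01, against -0.03, -0.12 and -0.02 over all genes. In the groups by substrate, the M/M median was highest for phosphate, sulfate and dicarboxylate carriers (0.92, 5 genes) and lowest for mitochondrial carriers (0.19, 12 genes). The former 5 were dim, with a median control signal of 14.7, and ran from -0.10 to 1.19. Of them, 2 were above control in 3 of 3 experiments, against 31.8% of all genes. After centring the M/M medians were 0.49 for phosphate, sulfate and dicarboxylate carriers and -0.23 for mitochondrial carriers. Of the 12 mitochondrial carriers, 7 were then below control in 3 of 3 experiments, against 25.8% of all genes. As deposited, 3 of them were above and 1 below. Their median control signal was 337, against 44.6 over all probe sets, and whether brightness bears on the centred count was not tested.

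**Figure D2:**
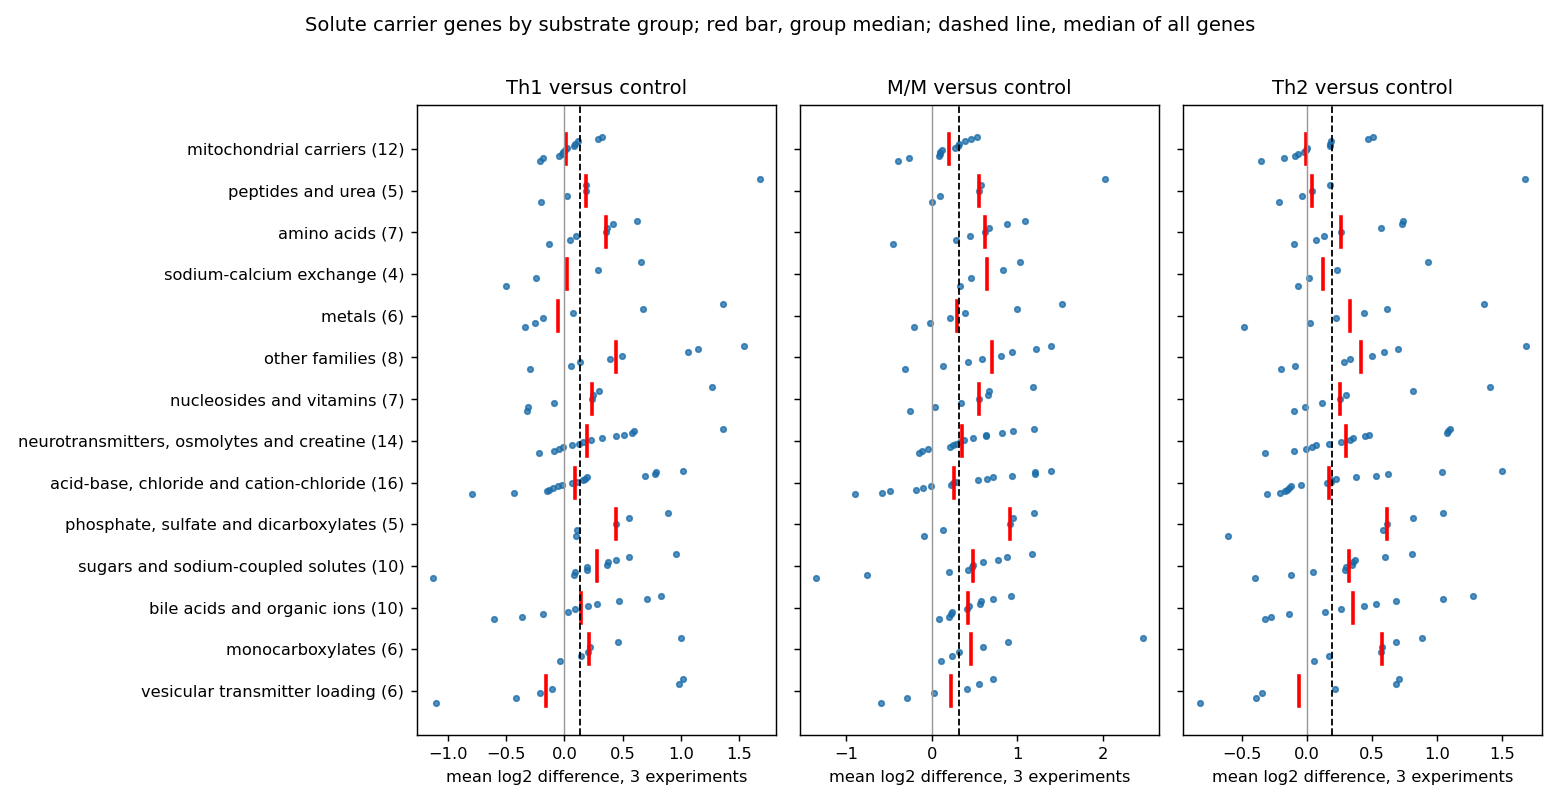
Mean log2 difference from the control of the same experiment (x axis, as deposited) for each of the 116 genes by substrate group, in 3 panels for Th1, M/M and Th2 cytokines. Points are genes, red bars are group medians and the dashed line is the median of all genes (0.13, 0.31 and 0.19). With M/M cytokines the group medians run from 0.19 for mitochondrial carriers to 0.92 for phosphate, sulfate and dicarboxylate carriers.

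The separation of groups was also counted without reference to experiments. With Th1 cytokines 3 genes, Slc4a7, Slc6a13 and Slc18a1, had all 3 treated arrays above all 3 control arrays, against 1.58% of all genes. With M/M cytokines there were 12 such genes (10.3%, against 7.58%). With Th2 cytokines there were 3, namely Slc4a7, Slc35f6 and Slc6a17, against 2.72%. No carrier had all 3 treated arrays below control with any mixture, against 0.739%, 0.486% and 0.528% of all genes. Slc6a13, Slc18a1, Slc35f6 and Slc6a17 are named here after their values were seen, and their control means were 16.3, 2.39, 10.1 and 3.19. The comparisons of the 3 mixtures share their control arrays, and therefore a control array that is low or high moves all of them.

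Slc2a1 encodes the glucose transporter of the blood-brain barrier and of astrocytes. Its signal was 767, 207 and 413 in control cultures of experiments 1, 2 and 3. It was 913, 528 and 995 in Th1, 1124, 489 and 1342 in M/M and 1032, 336 and 1007 in Th2 cultures. Every treated array was above the control of its experiment, whereas the groups overlapped, since the control of experiment 2 was low and that of experiment 1 high. The differences were 0.96 in Th1 (SE 0.24, adjusted p = 0.599), 1.16 in M/M (SE 0.24, adjusted p = 0.0672) and 0.80 in Th2 cultures (SE 0.24, adjusted p = 0.642) as log2 differences in limma. After centring they were 0.80, 0.74 and 0.59, and without experiment 3 they were 0.80, 0.90 and 0.56. The direction was thus the same on both scales and in each pair of experiments tried. A dimmer probe set for the gene had 264, 113 and 58.9 in control and 332, 191 and 262 with M/M cytokines. Its mean log2 differences were 0.84 in Th1, 1.08 in M/M and 0.73 in Th2 cultures, and the M/M difference was by far largest in experiment 3. Slc2a3, the glucose transporter of neurons, had only 29.1, 19.7 and 34.9 in control and 33.9, 32.8 and 47.9 with M/M cytokines. Its M/M log2 difference of 0.47 (SE 0.34, adjusted p = 0.498) was 0.04 after centring. With Th1 and Th2 cytokines Slc2a3 had 34.5, 32.1 and 27.0 and 37.3, 29.1 and 38.1, log2 differences of 0.19 and 0.35. Of 10 genes for sugar and sodium-coupled carriers, 5 were above control in 3 of 3 experiments with M/M cytokines, 1 with Th1 and 2 with Th2, and none was below. The shares of all genes above control were 31.8%, 14.3% and 26.9%. After centring 2 of the 10 were above and 2 below with M/M cytokines, against 12.9% and 25.8% of all genes.

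Promoter windows are shown for Slc2a1, Slc7a1 and Slc16a1, which had, with Slc4a7, the lowest p with M/M cytokines among carriers whose control signal reached the median of the array. They are taken from RefSeq on the GRCr8 assembly and run from 250 bases before to 50 bases after the start of the gene, on the plus strand. Windows were found for 98 of the 116 genes. Capitals mark matches, on either strand, to the GC box CCGCCC, the E-box CACGTG, the hypoxia core ACGTG and the TATA motif TATAAA, and the hypoxia core lies inside the E-box.
Slc2a1, chr5:138002272-138002571: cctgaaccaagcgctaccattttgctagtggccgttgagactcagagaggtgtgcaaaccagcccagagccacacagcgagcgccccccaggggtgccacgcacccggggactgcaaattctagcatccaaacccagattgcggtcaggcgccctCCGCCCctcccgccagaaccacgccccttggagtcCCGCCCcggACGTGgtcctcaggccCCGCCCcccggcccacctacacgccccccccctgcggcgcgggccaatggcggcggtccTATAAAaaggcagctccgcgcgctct
Slc7a1, chr12:11664238-11664537: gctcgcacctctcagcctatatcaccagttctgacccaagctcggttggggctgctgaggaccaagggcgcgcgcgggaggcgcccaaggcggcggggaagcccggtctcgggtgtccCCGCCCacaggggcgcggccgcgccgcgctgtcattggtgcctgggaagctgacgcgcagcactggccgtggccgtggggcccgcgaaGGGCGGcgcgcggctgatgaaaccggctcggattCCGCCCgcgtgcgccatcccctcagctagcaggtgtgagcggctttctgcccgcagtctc
Slc16a1, chr2:194812410-194812709: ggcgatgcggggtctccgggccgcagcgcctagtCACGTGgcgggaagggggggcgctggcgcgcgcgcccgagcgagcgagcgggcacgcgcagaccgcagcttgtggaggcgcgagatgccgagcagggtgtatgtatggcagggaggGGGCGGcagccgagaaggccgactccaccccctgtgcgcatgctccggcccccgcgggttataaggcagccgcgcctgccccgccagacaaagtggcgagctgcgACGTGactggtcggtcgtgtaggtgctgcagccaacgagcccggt
Of the 3 windows, that of Slc2a1 holds 3 GC boxes, 1 hypoxia core and 1 TATA motif, and that of Slc7a1 holds 3 GC boxes. The window of Slc16a1 holds 1 GC box, 1 E-box and 3 hypoxia cores, 2 of them being the strands of the E-box. The TATA motif of Slc2a1 lies after the start of the gene, at position 25, and so does 1 hypoxia core of Slc16a1, at position 6. The 3 windows differ in these motifs. All 3 windows are rich in G and C, at 68.3%, 72.0% and 72.7%. A GC box stands in 34.9% of the 27457 promoter windows of the table, a hypoxia core in 19.7%, a TATA motif in 14.3% and an E-box in 6.65%. The NF-kappaB motif, the AP-1 motif TGANTCA and the cyclic AMP response element TGACGTCA, also searched on both strands and found in 7.6%, 7.33% and 1.91% of windows, have no match in these letters.

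Slc7a1 encodes the main carrier for arginine and lysine, the former a substrate of nitric oxide synthase. Its signal was 303, 331 and 132 in control and 729, 629.7 and 275 with M/M cytokines. With Th1 it was 454, 621 and 171 and with Th2 633, 390.1 and 246. All 9 treated arrays were above their control, and M/M arrays were 2.41, 1.9 and 2.09 times their control in experiments 1, 2 and 3. In limma the M/M log2 difference was 1.09 (SE 0.23, adjusted p = 0.0747), 0.66 after centring and 1.10 without experiment 3. With Th1 it was 0.62 (adjusted p = 0.857) and with Th2 0.73 (adjusted p = 0.715). After centring, the Th2 array of experiment 2 lay below its control, at -0.31 on the log2 scale. A second probe set for Slc7a1 had the lowest adjusted p of all members. It had 77.3, 101 and 46.1 in control and 215, 203 and 143 with M/M cytokines, without overlap, a log2 difference of 1.37 (SE 0.27, adjusted p = 0.0595) and 0.94 after centring. Another probe set, dimmer still, had 71.7, 74.5 and 16.4 in control and 99.5, 84.0 and 35.9 with M/M cytokines, with a log2 difference of 0.59. The 3 probe sets therefore shared a direction with M/M cytokines but not a size.

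The carriers of large neutral amino acids work as a pair of the light chain Slc7a5 and the heavy chain Slc3a2, and both were bright. Slc7a5 had 702, 970.4 and 324 in control, 774, 1234 and 490.5 in Th1, 1072, 968 and 768 in M/M and 1138, 926 and 687 in Th2 cultures. In experiment 2 the M/M and Th2 arrays were at or just below their control, and in experiments 1 and 3 above it. The log2 differences were 0.36, 0.62 and 0.57 (adjusted p = 0.857, 0.264 and 0.717), and 0.20, 0.19 and 0.36 after centring. They were 0.24, 0.30 and 0.31 without experiment 3 and 0.37, 0.93 and 0.89 without experiment 2. Slc3a2 had 1954, 1949 and 1022 in control, 2029, 2178 and 1855 in Th1, 2088, 2059 and 1632 in M/M and 1868, 1745 and 1568 in Th2 cultures. Apart from experiment 3, its arrays lay within 0.895 and 1.12 times their control. Its log2 differences of 0.36, 0.28 and 0.13 (adjusted p = 0.857, 0.448 and 0.877) became 0.20, -0.14 and -0.08 after centring, so that the direction turned for M/M and Th2 cytokines. A second probe set for Slc3a2 kept its direction, with M/M log2 differences of 0.63 as deposited and 0.20 after centring. Slc7a2, an arginine carrier induced in macrophages, was at 1, 3.03 and 3.4 in control and 1.89, 1 and 13.6 with M/M cytokines. With Th1 and Th2 cytokines it had 3.76, 1.15 and 1.8 and 2.3, 3.15 and 6.5. At these signals its log2 differences of -0.13, 0.44 and 0.73 have an SE of 0.77 and give no direction. The glutamate carrier Slc1a6 of neurons was as dim, at 9.45, 7.92 and 2.3 in control and 8.53, 4.63 and 1.7 with M/M cytokines. Its 2 probe sets lay on opposite sides of control in 3 of 3 experiments with M/M cytokines, the second at 1.1, 1 and 2.5 in control and 1.88, 2.53 and 2.9 with M/M.

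**Figure D3:**
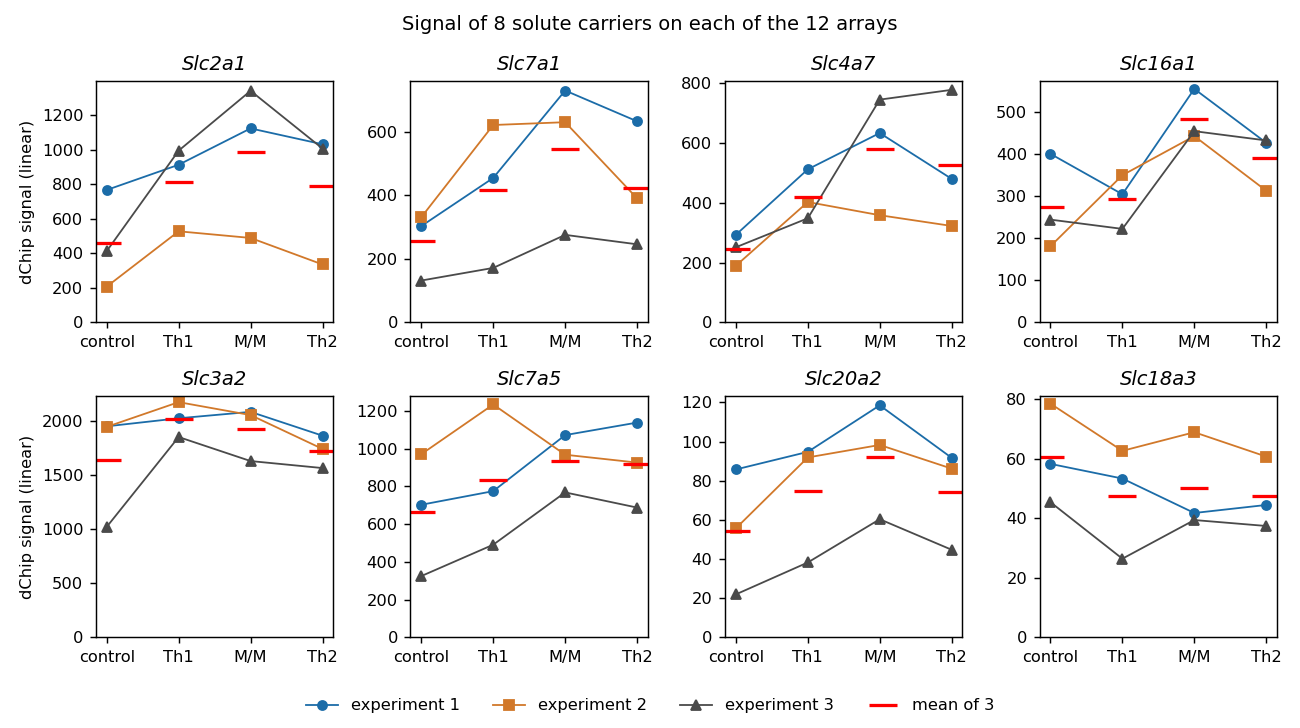
Linear dChip signal (y axis, from 0) of 8 solute carriers on all 12 arrays, by group on the x axis. Lines join the arrays of an experiment and red bars are means of 3. For Slc2a1, Slc7a1, Slc4a7 and Slc20a2 every treated array is above the control of its experiment, and for Slc18a3 every one is below.

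Slc16a1 encodes a carrier that exports or takes up lactate, pyruvate and ketone bodies. It had 402, 181 and 245 in control and 556, 444 and 456 with M/M cytokines, and these groups did not overlap. With Th2 it had 428, 314 and 433, above control in 3 of 3 experiments, and with Th1 305, 351 and 223, above control in experiment 2 only. The log2 difference was 0.89 with M/M (SE 0.26, adjusted p = 0.165), 0.57 with Th2 (adjusted p = 0.717) and 0.14 with Th1 cytokines (adjusted p = 0.943). After centring these were 0.46, 0.36 and -0.02, and without experiment 3 they were 0.88, 0.44 and 0.28. Its second probe set had 418, 85.1 and 129 in control and 610.0, 306 and 185 with M/M cytokines, a log2 difference of 0.97. Of the other monocarboxylate carriers, Slc16a8 was above control in 3 of 3 experiments with M/M cytokines. It is named after its values were seen, and its signals were 1.32, 1 and 6.1 in control and 5.13, 9.73 and 27.3 with M/M cytokines, dim on every array.

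Slc4a7 encodes a sodium bicarbonate cotransporter that brings base into the cell. Its signal was 293, 189.7 and 252 in control, 512, 403 and 348 in Th1, 634, 359 and 746 in M/M and 480.4, 323 and 779 in Th2 cultures. With each mixture all 3 arrays were above all control arrays, which the comparisons share. The log2 differences were 0.79, 1.2 and 1.04, each with SE 0.26, and adjusted p was 0.857, 0.075 and 0.562. After centring they were 0.63, 0.77 and 0.82, and without experiment 3 they were 0.95, 1.02 and 0.74. The bright chloride carriers of this group lay on both sides of control. Slc12a2, the cotransporter that loads cells with sodium, potassium and chloride, had 1432, 3015 and 473 in control and 1313, 2004 and 532 with M/M cytokines. Slc12a4, which lets potassium and chloride out, had 541, 1219 and 106 in control and 501, 582 and 190.2 with M/M cytokines. In experiment 2 the M/M arrays were at 0.664 times control for Slc12a2 and 0.478 times for Slc12a4, whereas in experiment 3 they were at 1.12 and 1.8 times. For both genes the control signals of experiments 2 and 3 differed by more than any treated array from its control. Of the 16 acid-base and chloride carriers, 6 were above and 2 below control in 3 of 3 experiments with M/M cytokines, and 4 and 4 after centring. The shares of all genes were 31.8% and 3.63%, and 12.9% and 25.8% after centring.

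Among carriers of metals and phosphate, Slc20a2, a sodium-driven phosphate carrier, had 85.7, 55.6 and 21.9 in control and 118, 98.3 and 60.3 with M/M cytokines. With Th1 and Th2 cytokines it had 94.7, 91.9 and 38.2 and 91.7, 86.2 and 44.7, and all treated arrays were above their control on both scales. Its log2 differences were 0.56, 0.92 and 0.59 (adjusted p = 0.857, 0.184 and 0.717), and 0.43, 0.64 and 0.36 without experiment 3. Slc41a2, a magnesium carrier, had 132, 64.2 and 117 in control, 231, 128 and 136 in Th1, 170.5, 109 and 423 in M/M and 158, 88.4 and 253 in Th2 cultures. The M/M mean of 234 ± 166 (SD, n = 3) rests largely on experiment 3, and the M/M log2 difference of 1.0 (adjusted p = 0.226) was 0.57 without it and 0.57 after centring. With Th1 and Th2 cytokines it was 0.67 and 0.61 (adjusted p = 0.857 and 0.741), and 0.51 and 0.40 after centring. Slc40a1, the exporter of iron, had 72.0, 61.1 and 26.9 in control and lay below it in 3 of 3 experiments with Th1 and Th2 cytokines. These arrays had 51.9, 55.5 and 20.5 and 45.6, 54.5 and 17.3, log2 differences of -0.33 and -0.49 (adjusted p = 0.896 and 0.763). With M/M cytokines it had 40.2, 49.0 and 38.9, below control in experiments 1 and 2 and above it in experiment 3. After centring all 9 treated arrays were below their control, with mean differences of -0.49, -0.64 and -0.70 (Th1, M/M, Th2). The groups overlapped with every mixture as deposited. Slc30a1, the exporter that lowers zinc in the cytosol, is named after its values were seen. It had 21.3, 5.42 and 7.2 in control, 28.4, 40.4 and 12.2 in Th1, 33.3, 30.2 and 19.6 in M/M and 29.5, 38.0 and 12.6 in Th2 cultures, so that the low control of experiment 2 sets much of the difference.

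Of 14 carriers of neurotransmitters, osmolytes and creatine, 6 were above control in 3 of 3 experiments with M/M cytokines and none below, and after centring 2 were above and 4 below. Among all genes 31.8% were above and 3.63% below as deposited, and 12.9% and 25.8% after centring. Slc6a9, the glycine transporter of glia, had 123, 82.4 and 83.2 in control, 124, 162 and 121 in Th1 and 135, 138 and 324 in M/M cultures. The M/M group did not overlap with control, and its log2 difference of 0.94 (SE 0.39, adjusted p = 0.277) was 0.44 without experiment 3 and 0.52 after centring. With Th1 cytokines it was 0.51 (adjusted p = 0.859). With Th2 cytokines the signals were 127, 111 and 59.0, on both sides of control. Slc6a6, which carries the osmolyte taurine, had 91.3, 111 and 11.8 in control, 52.0, 191 and 42.0 in Th1, 84.6, 165 and 46.7 in M/M and 97.6, 138 and 24.1 in Th2 cultures. The control of experiment 3 was far below the others, and the log2 differences of 0.60, 0.81 and 0.48 (adjusted p = 0.857, 0.357 and 0.804) were -0.02, 0.23 and 0.20 without that experiment. After centring they were 0.44, 0.39 and 0.27. Slc6a8, the creatine transporter, had 679, 825 and 226 in control, 468, 604 and 326 with M/M and 574, 764 and 147 with Th2 cytokines. Its Th2 arrays were below control in 3 of 3 experiments, at 0.846, 0.926 and 0.651 times control, with a log2 difference of -0.32 (SE 0.30, adjusted p = 0.813) and -0.54 after centring. Its M/M arrays were below control in experiments 1 and 2 only.

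Of the 12 mitochondrial carriers, 3 were above and 1 below control in 3 of 3 experiments with M/M cytokines, against 31.8% and 3.63% of all genes. After centring 0 were above and 7 below, against 12.9% and 25.8% of all genes. Whether the bright signals of these carriers bear on the centred counts was not tested. Slc25a5 and Slc25a4, which exchange ADP for ATP, had 1957, 1763 and 1613 and 1809, 1739 and 1428 in control. With M/M cytokines they had 2181, 2359 and 2763 and 1942, 2297 and 1910.0, all above the 3 control arrays, at 1.11, 1.34 and 1.71 and 1.07, 1.32 and 1.34 times control. After centring the mean M/M differences were 0.02 and -0.12 on the log2 scale. Whether probes for these 2 paralogs share transcripts was not tested. Slc25a3, the mitochondrial phosphate carrier, had 1788, 1388 and 1464 in control and 1653, 1506 and 1884 with M/M cytokines, and Slc25a11, which exchanges malate for oxoglutarate, had 811, 856 and 192 and 720.2, 789 and 282. Both lay on either side of control. Slc25a26, which brings S-adenosylmethionine into mitochondria, was below control in 3 of 3 experiments in M/M as in Th2 cultures. It had 81.1, 148 and 80.1 in control, 71.9, 104 and 74.2 with M/M and 78.8, 97.3 and 59.9 with Th2 cytokines, log2 differences of -0.26 and -0.36 (adjusted p = 0.624 and 0.763), with overlap of the groups. After centring these were -0.69 and -0.57.

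Slc18a3, the vesicular acetylcholine transporter, was below control in 3 of 3 experiments with every mixture, the 1 carrier of 116 to be so (0.862%, against 0.633% of all genes). After centring there were 4 (3.45%, against 3.53%), namely Slc18a3, Slc40a1, Slc25a20 and Slc9a4, the last of them and Slc25a20 named after their values were seen. Slc18a3 had 58.3, 78.5 and 45.4 in control, 53.4, 62.7 and 26.4 in Th1, 41.8, 68.9 and 39.4 in M/M and 44.5, 60.7 and 37.4 in Th2 cultures. The log2 differences were -0.41, -0.29 and -0.35 (adjusted p = 0.857, 0.636 and 0.798), each with SE 0.30, and the groups overlapped. After centring they were -0.57, -0.72 and -0.56. Slc8a2, a sodium-calcium exchanger of brain, had 271, 240.2 and 45.3 in control and 234, 217 and 20.4 with Th1 cytokines, below control in 3 of 3 experiments, a log2 difference of -0.50 (adjusted p = 0.857), and -0.18 without experiment 3 and -0.66 after centring. Slc22a7, an organic anion carrier, had 63.8, 74.8 and 80.2 in control and 62.5, 60.3 and 68.7 with Th1 cytokines, a log2 difference of -0.19 (adjusted p = 0.938) and -0.35 after centring. Its second probe set, dimmer by mean log2 signal though not by its mean control signal, lay above control in 3 of 3 experiments with Th1 cytokines, at 108, 117 and 5.5 in control and 125, 129 and 9.8 with Th1, so that the gene has no settled direction. The same holds with M/M cytokines for Slc14a2, a urea carrier. Its brighter probe set had 326, 312 and 114 in control and 394, 428 and 215 with M/M cytokines, and the dim one 10.5, 12.4 and 3.6 and 9.24, 6.21 and 2.2. Slc15a4, a peptide and histidine carrier of lysosomes, had 582, 1044 and 116 in control and 579, 675 and 179 with M/M cytokines, and Slc35b1, a carrier of the endoplasmic reticulum, had 748, 554 and 502 and 593, 589 and 781. Neither kept 1 side of control.

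**Figure D4:**
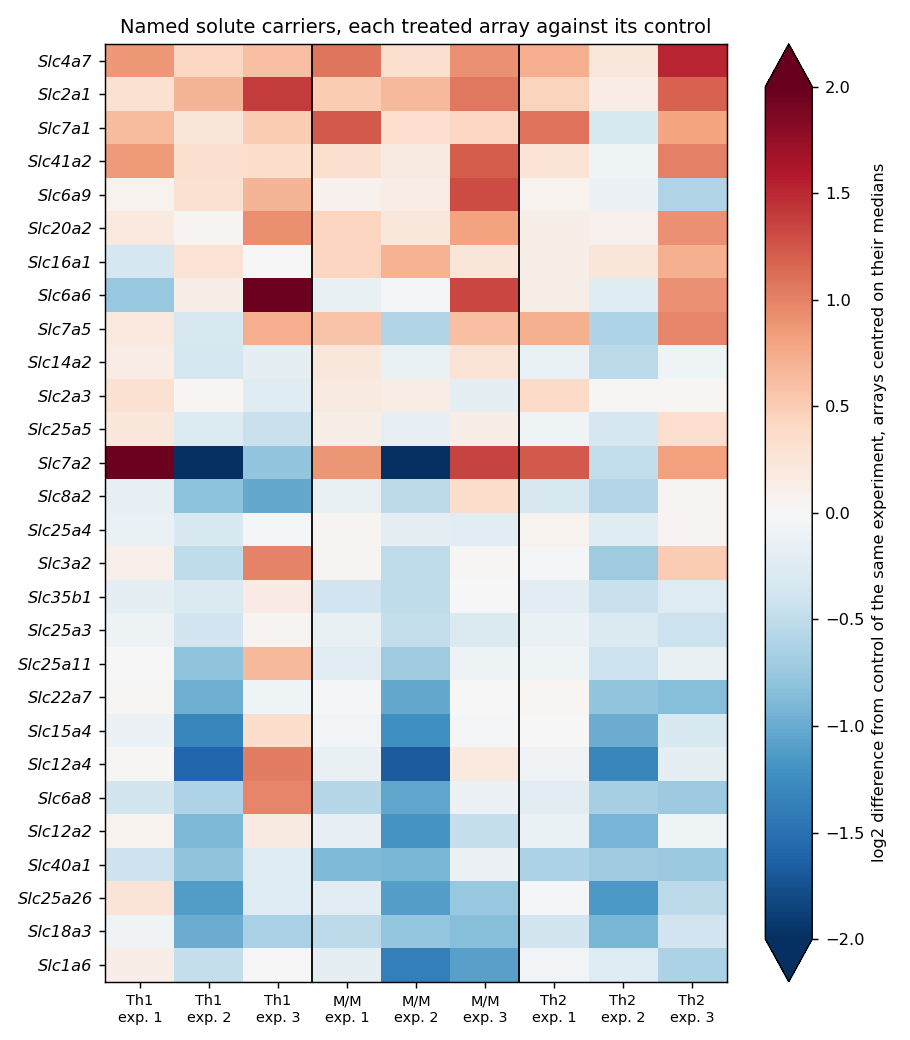
Log2 difference of each treated array from the control of its experiment (colour), after every array was centred on its median, for 28 named carriers (rows, ordered by their M/M mean) in 9 treated arrays (columns). Colours are capped at 2 in both directions. Slc4a7, Slc2a1 and Slc20a2 are above control in all 9 columns, and Slc18a3 and Slc40a1 are below in all 9.

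Other transport genes were counted in the same way, and none of them passed the adjusted threshold. Of the sodium pump, which sets up the gradient that many solute carriers use, 7 subunit genes were measured, with medians of -0.01, 0.05 and 0.02 on the log2 scale for Th1, M/M and Th2 cytokines. The medians of 5 Slco organic anion carriers were -0.06, 0.14 and 0.27, those of 10 aquaporins, which are water channels, 0.21, 0.53 and 0.34, and those of 4 carbonic anhydrases, which make bicarbonate, 0.53, 0.81 and 0.43. Over all genes they were 0.13, 0.31 and 0.19. After centring, the medians were -0.17, -0.38 and -0.19 for the sodium pump and -0.22, -0.28 and 0.05 for Slco carriers. Aquaporins then had 0.05, 0.11 and 0.12 and carbonic anhydrases 0.37, 0.39 and 0.22. All genes then had -0.03, -0.12 and -0.02. At an unadjusted p under 0.05, M/M cytokines had 1 aquaporin and 2 carbonic anhydrases higher and no gene of the other lists, beside the 15.4% of all probe sets. Of 12 carriers listed for known links to cytokines, 8 were measured and are described above, and the other 4 (Slc7a11, Slc38a2, Slc20a1 and Slc11a1) were not analysed here.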

How the data were processed

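RNA of 12 cultures was hybridised to Affymetrix GeneChips for rat transcripts, and the arrays were grouped by the mixture and the experiment code in their labels. Each deposited intensity is a linear signal per probe set, which the authors calculated with dChip, and its settings, with any normalization between arrays, are not given in the sources used here. Tests covered 8740 probe sets, and 59 control ones were dropped. Values below 0.1 were set to 0.1, log2 was taken and arrays were not rescaled. Gene symbols came from the annotation of the platform, and all 116 gene IDs matched a current symbol. Precision is limited by the number of arrays.

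In limma (3.58.1, under R 4.3.3) the model held group and experiment, the latter as replicate block, and the variance followed mean signal. Tests were two-sided, with Benjamini-Hochberg adjustment over all probe sets and a threshold of 0.05. The fit was tested on simulated data. The pairing comes from the experiment codes. Deviations from group means correlated at 0.439 to 0.708 for 18 pairs of arrays of the same experiment and at -0.625 to 0.357 for 36 of different ones. A gene is called above control in 3 of 3 experiments where each treated array exceeded the control of its experiment.

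Named genes, each by its brightest probe set (highest mean log2 signal over 12 arrays), are members past the threshold (none), the 6 highest and 4 lowest mean differences of each mixture among those with 1 direction in 3 experiments and a control signal at or above the median, the 12 brightest in control, 8 carriers linked to cytokines, and genes whose probe sets disagree. The members and lists were chosen with earlier results of these data known. The alternatives were no replicate block, a random one, fits of 2 groups, quantile normalization, centring, an offset of 16, a floor of 1, a filter at a mean signal of 20, no variance trend, the methods' screening rule (over 2-fold, with p below 0.2 in an analysis of variance), and leaving out single replicates. Centring together with leaving out an experiment, and counts without experiment 3, were added after the data were seen. Of the sequences, those with RefSeq windows are given.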

Additional observations from a re-analysis of the deposited data

How the results depend on the processing

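The number of arrays limits these comparisons, and differences between dim probe sets are not resolved. Without the replicate block limma called 0 members against control, and the unadjusted p was under 0.05 for 1 member probe set in Th1, 6 in M/M and 4 in Th2 cultures. The counts of members called changed with M/M cytokines under some settings. A fit of the 2 groups alone called 7 probe sets, of Slc7a1, Slc2a1, Slc4a7, Slc16a8 and Slc15a1, with 4.45% of all probe sets called. The filter on dim probe sets called 1, for Slc7a1 (0.58% of all). Leaving out replicates gave 0 to 1, the 1 being Slc2a1, without experiment 1 (0.801% of all) or without its control (0.755%). Centring without experiment 3 called 1, Slc27a1, which was lower (1.37% of all). The methods' screening rule, which has no adjustment, passed 6, 11 and 7 member probe sets for Th1, M/M and Th2 cytokines, against 2.77%, 6.81% and 3.42% of all probe sets. The M/M median of 0.42 was 0.0326 after quantile normalization and -0.009 after centring, and with centring it was -0.0537, -0.0091 and -0.18 without experiments 1, 2 and 3. Without experiment 2 the Th1 median of 0.15 was -0.06 and the Th2 median of 0.23 was 0.05. Fold changes that turned sign were those of Slc16a1 with Th1 (-0.0396 after quantile normalization and -0.02 after centring), Slc3a2 with M/M (-0.0015 and -0.14) and Slc3a2 with Th2 cytokines (-0.0821 after centring). With single replicates left out, the log2 fold change with Th1 cytokines ran from -0.27 to 0.41 for Slc16a1, -0.0625 to 0.48 for Slc2a3, -0.0156 to 1.31 for Slc6a6 and -1.16 to 0.55 for Slc7a2. That of Slc7a2 with M/M cytokines ran from -0.44 to 1.46, and with Th2 cytokines that of Slc3a2 ran from -0.11 to 0.28, Slc6a6 from -0.0133 to 0.93 and Slc6a8 from -0.53 to 0.0518. The cause of these changes was not tested. Th1, Th2 and all between-mixture counts were 0 under the other settings.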
